A study of Homo sapiens with 7 samples.

Results

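The Wnt ligands are secreted signalling proteins, and 10 of them were followed here by name: WNT2B, WNT3, WNT3A, WNT4, WNT5A, WNT5B, WNT6, WNT8A, WNT10B and WNT11. They are 10 of the 22670 genes listed in each library and 10 of the 19 Wnt ligand genes in the deposited data. Each of the 10 has 1 entry per library and was found by its symbol, without a threshold on any measured value, though earlier results of these data were known when the list was drawn up. RNA-seq of poly(A) RNA was carried out on SEES-3 human embryonic stem cells (hESCs), an established cell line, grown without feeder cells in StemFit AK-03 medium on iMatrix-511. JMJD3c-hESCs carry a doxycycline (Dox)-inducible form of the histone H3K27 demethylase JMJD3 (gene KDM6B) that keeps its catalytic domain, and gave 5 libraries, 1 before Dox (Day 0) and 1 on each of Days 1 to 4 under 1 µg/ml Dox. JMJD3c mut-hESCs carry the inducible form without catalytic activity and gave 1 library at Day 4 of that dose and 1 without Dox. Both lines are stably transfected, drug-selected SEES-3 derivatives that also carry the reverse Tet transactivator, so line and construct cannot be told apart.

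Wnt proteins are lipid-modified by the acyltransferase PORCN, carried out of the cell by WLS, and bind Frizzled receptors on nearby cells. With the co-receptors LRP5 and LRP6 they stabilise β-catenin, which activates target genes with TCF and LEF factors, whereas other ligands act mainly through ROR and RYK receptors without β-catenin. In the early embryo Wnt signalling is required to form the primitive streak, from which mesoderm and endoderm arise, and WNT3 is the ligand needed for this step in the mouse. WNT3A and WNT8A are further ligands of the β-catenin pathway, WNT5A, WNT5B and WNT11 are best known for the β-catenin-independent branch and cell movements, WNT4 for kidney and gonad development, and WNT10B for bone and mammary gland.

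The promoters of the ligands on which the values turn are shown because the induced enzyme acts on chromatin. Each is the 250 bases before a start of transcription in RefSeq (GRCh38.p14), read 5′ to 3′ on the gene's own strand, and capitals mark GGGCGG or its reverse complement CCGCCC, the core of the GC box. WNT3 is shown from chr17:46818693-46818942 (minus strand), WNT3A from chr1:228006748-228006997 (plus strand), and WNT5A from its upstream start at chr3:55487307-55487556 and its downstream start at chr3:55481399-55481648 (both minus strand).
WNT3: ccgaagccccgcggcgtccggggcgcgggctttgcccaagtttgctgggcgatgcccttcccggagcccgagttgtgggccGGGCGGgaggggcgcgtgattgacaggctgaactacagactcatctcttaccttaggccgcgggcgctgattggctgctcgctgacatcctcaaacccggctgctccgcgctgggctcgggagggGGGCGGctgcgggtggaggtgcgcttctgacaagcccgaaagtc
WNT3A: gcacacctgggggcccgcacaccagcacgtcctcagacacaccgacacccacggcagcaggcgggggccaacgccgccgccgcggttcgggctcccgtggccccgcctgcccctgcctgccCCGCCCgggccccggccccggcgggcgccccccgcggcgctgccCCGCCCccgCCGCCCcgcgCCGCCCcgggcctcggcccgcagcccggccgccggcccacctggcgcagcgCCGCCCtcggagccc
WNT5A, upstream start: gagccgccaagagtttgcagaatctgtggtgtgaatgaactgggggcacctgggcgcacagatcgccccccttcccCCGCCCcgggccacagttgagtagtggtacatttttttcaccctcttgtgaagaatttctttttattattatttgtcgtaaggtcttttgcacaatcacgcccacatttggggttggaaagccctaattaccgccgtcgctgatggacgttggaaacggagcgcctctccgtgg
WNT5A, downstream start: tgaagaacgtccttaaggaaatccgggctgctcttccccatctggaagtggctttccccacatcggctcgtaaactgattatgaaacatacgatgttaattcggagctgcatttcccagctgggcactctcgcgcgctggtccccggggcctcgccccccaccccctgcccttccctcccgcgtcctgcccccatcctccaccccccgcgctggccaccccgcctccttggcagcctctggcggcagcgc
The WNT3 promoter held 26 CpG dinucleotides at 68.8% GC, and the WNT3A promoter held 38 at 86.0% GC. The WNT5A promoters held 14 and 18, at 52.8% and 64.4% GC.

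RefSeq promoters were found for 8 of the 10 ligands, 11 promoters in all, with none in the table used for WNT10B and WNT11. These 11 promoters held between 4 CpG dinucleotides (WNT8A) and 40 (WNT4), against a median of 11 over all 35116 promoters of the table. GGGCGG was found on either strand in 8 of the 11, counting overlapping matches, and in 42.6% of all promoters. TATAAA, the TATA box core, was found in 1 of the 11, at WNT5B, and in 10.7% of all promoters. CTTTGA, the core of sites for TCF and LEF factors, was found in 0 of the 11 and in 11.2% of all promoters, which says only that these letters are not in these windows.

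Values are FPKM (fragments per kilobase of transcript, scaled to the number of mapped reads), with the lower and upper bounds of the Cufflinks 95% interval. Each condition had 1 library, so no difference has a replicate check, no p-value is given, and an interval covers how well 1 library was measured, with nothing of how cultures vary. The spacing of the lowest values, which are whole reads, put depth between about 1770000 mapped reads (Day 0) and 3650000 (JMJD3c mut-hESCs without Dox). The widths of the intervals put it between 1890000 and 3970000. Of the 47 genes behind the Day 0 estimate, 19 lay at the commonest step and 3 at 0.5 times that step, and if the smaller step were the worth of 1 read, the read numbers given here would be 2 times as large and the floors 0.5 times. KDM6B, to which the transgene's reads also count, was at 2.40 to 3.45 FPKM in the 2 libraries without Dox and at 158 to 454 FPKM in the 5 with Dox. The 6 markers of undifferentiated hESCs (POU5F1, NANOG, SOX2, DNMT3B, LIN28A and TDGF1) were above 4 FPKM in all 7 libraries, as the label of the cells states.

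WNT3, WNT5A and WNT5B were the ligands above 4 FPKM in at least 1 library. Averaged over the 7 libraries, the level per length of transcript was 6.84 FPKM for WNT3, 4.56 for WNT5A and 2.39 for WNT5B, and between 0.0391 (WNT6) and 0.364 (WNT3A) for the other 7. WNT3 was higher than WNT5A in 6 of 7 libraries, but their intervals lay apart only at Days 3 and 4, so their order was not settled in the other 5. WNT5A and WNT5B, neighbours in this order, overlapped in all 7 libraries. WNT3 and WNT5A both lay above WNT3A with intervals apart in all 7, and WNT5B did so in 2.

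**Figure D1:**
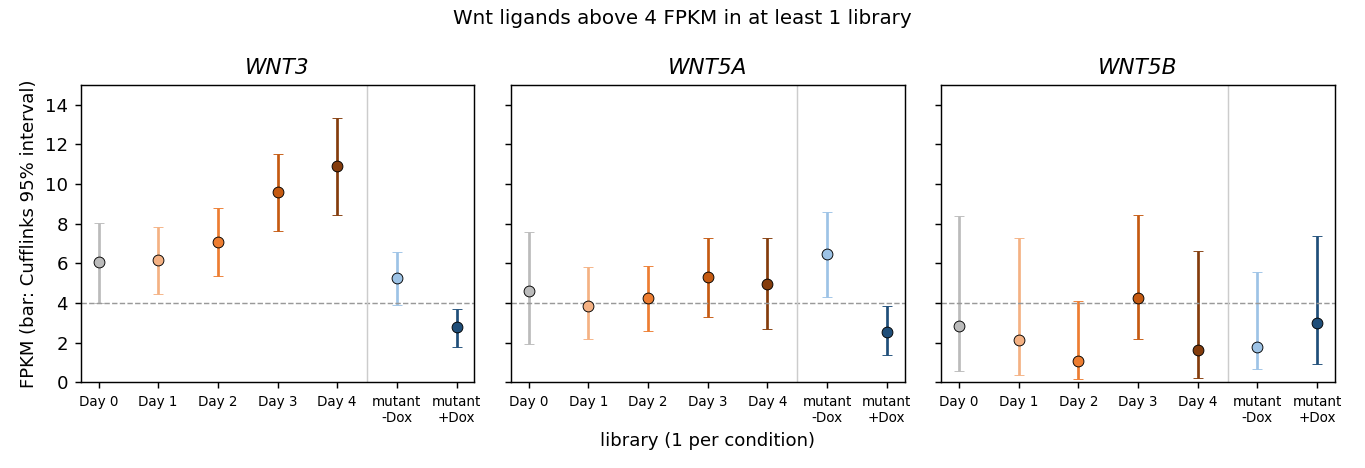
FPKM of WNT3, WNT5A and WNT5B (y axis, bars showing the Cufflinks 95% interval of each single library) in each of the 7 libraries (x axis), with the cutoff of 4 FPKM as a dashed line. WNT3 is highest at Day 4 (10.9 FPKM) and lowest in JMJD3c mut-hESCs with Dox (2.77 FPKM), WNT5A is highest in JMJD3c mut-hESCs without Dox (6.46 FPKM), and the WNT5B intervals all overlap.

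WNT3 lies on chromosome 17 of hg19, from 44839872 to 44896126 on the minus strand, and its canonical transcript has 5 exons and 3287 bases. From Day 0 to Day 4 of JMJD3c-hESCs its level was 6.06 (4.02 to 8.04), 6.18 (4.47 to 7.82), 7.09 (5.37 to 8.79), 9.58 (7.62 to 11.5) and 10.9 FPKM (8.44 to 13.3). In JMJD3c mut-hESCs it was at 5.27 FPKM (3.90 to 6.58) without Dox and 2.77 (1.77 to 3.72) with Dox. Every day of Dox was thus above Day 0 in JMJD3c-hESCs, while in JMJD3c mut-hESCs the library with Dox was the lower, and about 27 to 101 reads stood behind each value.

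At Day 4 WNT3 was 1.80 times its Day 0 level, with intervals apart, which did not reach the cutoff for an upregulated gene, a ratio above 2 with over 4 FPKM in the higher library. Between consecutive days the ratio was 1.02, 1.15, 1.35 and 1.14, and no 2 neighbouring days had intervals apart. Day 3 was 1.58 times Day 0 with overlapping intervals. JMJD3c mut-hESCs with Dox had 0.525 times the WNT3 of the same line without Dox, with intervals apart but short of the cutoff of 0.5. Against JMJD3c mut-hESCs with Dox, WNT3 at Day 4 was 3.95 times higher (log2 fold change of FPKM + 1, 1.66) and passed the cutoff with intervals apart. Of the 21 pairs of libraries, 10 had WNT3 intervals apart, and 6 of these 10 included the JMJD3c mut-hESC library with Dox. The 2 libraries without Dox differed by a ratio of 0.870 (JMJD3c mut-hESCs to JMJD3c-hESCs), within their intervals. Between these 2 libraries, 2 of the 10 ligands had over 4 FPKM in either, as had 10051 genes in all. Of the ligands 0 passed a cutoff, where 2.78% of those genes did so upward and 7.01% downward. Intervals lay apart for 0 ligands, where 6.79% of those genes were higher and 6.93% lower.

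WNT5A lies on chromosome 3, from 55499743 to 55523973 on the minus strand. Across Days 0 to 4 it measured 4.60 (1.95 to 7.59), 3.85 (2.18 to 5.80), 4.24 (2.60 to 5.87), 5.29 (3.31 to 7.27) and 4.96 FPKM (2.69 to 7.29). In JMJD3c mut-hESCs it was at 6.46 FPKM (4.32 to 8.59) without Dox and 2.55 (1.36 to 3.86) with Dox. The JMJD3c-hESC libraries all overlapped, with a ratio of 1.08 between Day 4 and Day 0. WNT5A was downregulated in JMJD3c mut-hESCs with Dox, to 0.396 times the level without Dox (log2 fold change -1.07), and this was the only 1 of its 21 pairs of libraries with intervals apart. At Day 4 it was 1.94 times the level of JMJD3c mut-hESCs with Dox, with overlapping intervals.

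WNT5B lies on chromosome 12, from 1639057 to 1756409 on the plus strand. Its levels on Days 0 to 4 were 2.84 (0.567 to 8.37), 2.12 (0.378 to 7.30), 1.10 (0.157 to 4.08), 4.25 (2.17 to 8.42) and 1.66 FPKM (0.207 to 6.64). JMJD3c mut-hESCs had 1.79 FPKM (0.661 to 5.55) without Dox and 2.99 (0.944 to 7.36) with Dox. No pair of the 7 libraries had intervals apart, with about 7 to 30 reads behind each value. The ratio was 0.584 between Day 4 and Day 0 and 1.67 between JMJD3c mut-hESCs with and without Dox, neither distinguishable at this depth. WNT5B overlaps FBXL14 on the opposite strand over 28173 bases, and FBXL14 was at 3.73 to 6.45 FPKM. The library kit keeps strand, but whether the counting used it is not given in the sources used here, so reads of the overlap cannot be assigned with certainty.

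The other 7 ligands were below 1.2 FPKM in every library and rested on 0 to 8 reads each. WNT3A (chromosome 1, 228194752 to 228248961) was at 0.206 FPKM at Day 0, then 0.549, 0.266, 0.498 and 0.601 at Days 1 to 4, and at 0.200 and 0.228 in JMJD3c mut-hESCs without and with Dox. These values stand for about 1, 4, 2, 5, 4, 2 and 2 reads, every interval started at 0, and the highest upper bound was 1.65 FPKM. WNT3A was therefore listed above 0 in all 7 libraries, though on as little as 1 read, with no difference between them that could be seen at this depth.

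WNT4 was at 1.18 FPKM (0 to 7.03) at Day 0, from about 8 reads, at 0.103, 0.256, 0 and 0.428 at Days 1 to 4, and at 0.0748 and 0 in JMJD3c mut-hESCs without and with Dox. The Day 0 library was thus the highest, but its interval took in every other value. WNT11 was at 0.325, 0.217, 0, 0.505 and 0.237 FPKM from Day 0 to Day 4 and at 0.158 and 0 in JMJD3c mut-hESCs, with at most 3 reads. WNT8A was listed at 0 at Day 0 and in both JMJD3c mut-hESC libraries, and at 0.379, 0.240, 0.449 and 0.317 FPKM at Days 1 to 4, from 1 or 2 reads each. A value of 0 allows up to 1.15 FPKM of WNT8A at Day 0 and 0.557 and 0.637 FPKM in JMJD3c mut-hESCs, taking 3 reads as the limit, so no difference was detectable. Such floors, like the intervals, cover counting error only, and PCR copies of 1 molecule were not told apart.

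WNT2B was at 0 at Day 0 and between 0.0753 and 0.225 FPKM in the other 6 libraries. It overlaps ST7L on the opposite strand over 6648 bases, and ST7L was at 3.76 to 5.95 FPKM, with the same limit as for WNT5B. WNT10B was above 0 at Day 1 (0.234 FPKM) and Day 4 (0.256 FPKM), from 1 read each. WNT6 was above 0 at Day 4 alone (0.273 FPKM, 1 read), where 0 reads at Day 0 allow up to 1.11 FPKM. Between 5 ligands (JMJD3c mut-hESCs with Dox) and all 10 (Day 4) were above 0 in a library.

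**Figure D2:**
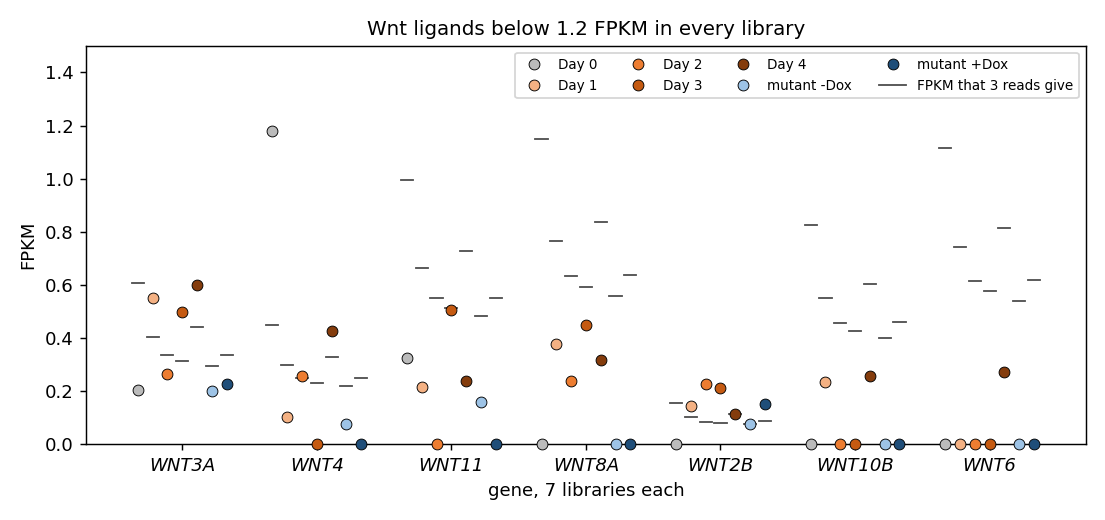
FPKM of the 7 Wnt ligands below 1.2 FPKM (y axis) for each gene (x axis), 1 point per library, with a short line at the FPKM that 3 reads would give. WNT3A is above 0 in all 7 libraries, WNT8A is at 0 at Day 0 and in both mutant libraries, and WNT6 is above 0 at Day 4 alone.

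In the comparison of Day 4 with Day 0 of JMJD3c-hESCs, 2 of the 10 ligands (WNT3 and WNT5A) had over 4 FPKM in either library. These libraries differ in Dox, days in culture and induced JMJD3c together, and no Day 4 library of this line without Dox was made, so these cannot be told apart. Relative to Day 0, 0 of the 10 were upregulated and 0 downregulated, where 5.87% and 7.56% of the 10247 genes with over 4 FPKM in either library were. WNT3 was the 1 ligand with intervals apart and higher, against 5.15% of those genes, and 0 were apart and lower, against 7.00%. The log2 fold change of FPKM + 1 was 0.76 for WNT3, 0.09 for WNT5A and -0.53 for WNT5B. Over the 10 ligands 7 were higher and 3 lower, with a median of 0.24 against -0.06 over all genes tested, and 7 of the 10 rested on few reads.

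Relative to Day 0, 2 of the 10 ligands had over 4 FPKM in either library at Days 1 and 2, and 3 at Day 3. At these days 0 of the 10 passed a cutoff in either direction. Of the 10196, 10212 and 10260 genes with over 4 FPKM in either library, 3.48%, 3.90% and 4.73% were upregulated at these days. The share downregulated was 3.27%, 4.24% and 4.48%. No ligand had intervals apart from Day 0 before Day 4. Of those genes, 1.45%, 2.73% and 4.45% were apart and higher and 2.54%, 4.49% and 4.34% apart and lower at these days.

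For the catalytically inactive form, JMJD3c mut-hESCs with Dox were compared with the same line without Dox. There 0 of the 10 ligands were upregulated and 1, WNT5A, was downregulated, against 1.25% and 1.53% of the 9736 genes tested. Both ligands with over 4 FPKM, WNT3 and WNT5A, had intervals apart and lower, against 1.68% of the genes, and 0 ligands were apart and higher, against 1.47%. The log2 fold change was -0.74 for WNT3, -1.07 for WNT5A and 0.52 for WNT5B, with 3 ligands higher, 4 lower and 3 equal at 0.

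With Dox in both lines, Day 4 of JMJD3c-hESCs was set against JMJD3c mut-hESCs. Of the 10 ligands, 2 (WNT3 and WNT5A) had over 4 FPKM in either library. WNT3 was the 1 ligand upregulated and 0 were downregulated, against 6.56% and 3.00% of 9999 genes tested. Its intervals were the only ones apart and higher (7.58% of genes), and 0 ligands were apart and lower (8.67%). The log2 fold change was 1.66 for WNT3, 0.75 for WNT5A and -0.59 for WNT5B, with 8 ligands higher and 2 lower. This comparison shares a library with each of the comparisons of Day 4 with Day 0 and of the mutant line with and without Dox, so its values are not further evidence for theirs. Against JMJD3c mut-hESCs without Dox, the same 2 ligands were tested, among 10045 genes. Day 4 had 2.07 times as much WNT3, which passed the cutoff with intervals apart (7.05% of those genes upregulated and 8.65% apart and higher). WNT5A was at 0.769 times, and 0 ligands were downregulated (3.90% of those genes) or apart and lower (9.96%). The call of WNT3 as upregulated therefore depended on which untreated library was the reference.

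**Figure D3:**
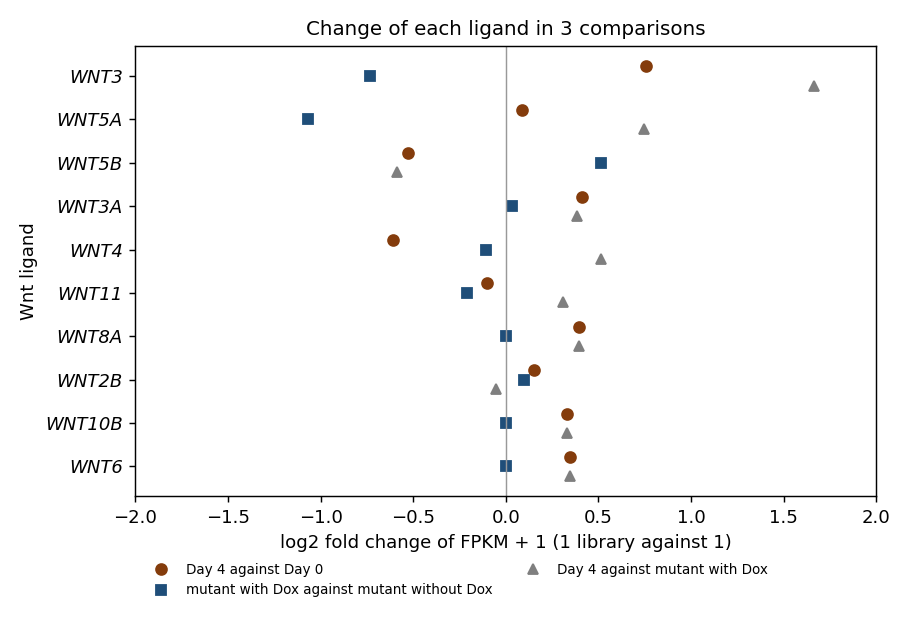
Log2 fold change of FPKM + 1 (x axis) of each of the 10 Wnt ligands (y axis) in 3 comparisons of 1 library against 1, with the line at 0 marking no difference. WNT3 is at 0.76 for Day 4 against Day 0, at -0.74 for the mutant line with against without Dox, and at 1.66 for Day 4 against the mutant line with Dox.

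Summed over the 10 ligands, the level on Days 0 to 4 was 15.2, 13.8, 13.4, 20.8 and 19.8 FPKM. In JMJD3c mut-hESCs it was 14.0 FPKM without Dox and 8.69 with Dox. The sum was highest at Days 3 and 4 and lowest in JMJD3c mut-hESCs with Dox, and WNT3, WNT5A and WNT5B made up 88.2% to 96.4% of it. WNT3 was 39.8%, 44.9%, 52.9%, 46.1% and 55.3% of this sum on Days 0 to 4, and 37.6% and 31.9% in JMJD3c mut-hESCs without and with Dox. The ratio of WNT3 to WNT5A was 1.32, 1.61, 1.67, 1.81 and 2.20 from Day 0 to Day 4, and 0.817 and 1.08 in JMJD3c mut-hESCs without and with Dox. The WNT3 share at Day 4 was thus close to that at Day 2, and no error can be given for it. In RNA from a whole culture, fewer cells of a type and less RNA per cell cannot be told apart.

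The markers of mesendoderm, the cells that form from the primitive streak, also moved with Dox in JMJD3c-hESCs, with all 7 upregulated at Day 4, against 5.87% of all genes tested. Their 7 genes (T, MIXL1, EOMES, SOX17, FOXA2, GATA4 and GATA6) summed to 5.49, 14.9, 59.7, 111 and 176 FPKM on Days 0 to 4, and to 9.32 and 6.90 in JMJD3c mut-hESCs without and with Dox. The paper names these same 7 genes as upregulated by JMJD3c. That all 7 passed the cutoff was thus known beforehand and is not an independent result. EOMES, SOX17, GATA4 and GATA6 were at 0 at Day 0, and all 7 were above 0 from Day 2. The 6 hESC markers summed to 2198 FPKM at Day 0 and 1557 at Day 4, and to 2028 and 1748 in JMJD3c mut-hESCs without and with Dox. Of these 6, SOX2 (136 to 65.9 FPKM) and DNMT3B (404 to 191 FPKM) were downregulated at Day 4 against Day 0, with intervals apart. The other 4 passed neither cutoff. The paper lists both SOX2 and DNMT3B as downregulated, so these calls were known beforehand. With Dox in JMJD3c mut-hESCs, 0 of the 6 passed a cutoff. SOX2 (99.6 to 74.6 FPKM) and DNMT3B (369 to 308 FPKM) were also lower there, with intervals apart. Neuroectoderm genes moved as well, with PAX6 (2.22 to 5.91 FPKM, intervals overlapping) and OTX2 (18.9 to 47.7 FPKM, intervals apart) upregulated at Day 4, and OTX2 downregulated in JMJD3c mut-hESCs with Dox (15.2 to 7.497 FPKM). Amnion or trophoblast markers summed to 13.04 to 24.1 FPKM with HAND1 and CGA at 0 in all 7 libraries. Within that list TFAP2C was downregulated at Day 4 (24.0 to 8.36 FPKM), while GATA3 and TFAP2A, at 0 at Day 0, had 2.68 and 1.89 FPKM. Fibroblast markers summed to 92.7 to 166 FPKM, of which THY1 alone had 76.1 to 130 FPKM, with LUM and DCN at 0 in all 7. The part of these cell states in the WNT3 values was not tested.

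The profile of WNT3 over the 7 libraries was closest to that of RET, a receptor tyrosine kinase, among 10878 genes with over 4 FPKM in a library. Likeness was the root mean square difference of log2(FPKM + 1) after centring each gene on its own mean, and it was 0.123 for RET, 0.126 for FAM189A2 and 0.156 for CTSK, which encodes the protease cathepsin K. RET was at 4.61, 5.46, 5.62, 7.87 and 9.92 FPKM from Day 0 to Day 4, and at 4.47 and 2.96 in JMJD3c mut-hESCs without and with Dox. For WNT5A the closest were DTX2 (0.138), KAZN (0.161) and SPTSSA (0.161), and for WNT5B they were HRASLS (0.164), NAGLU (0.165) and CTD-2228K2.5 (0.165). WNT4, whose span rests on the 8 reads at Day 0, was closest to PHF11 (0.112), GATSL1 (0.124) and CHURC1 (0.139). These are descriptions over 7 libraries.

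Of the 10 ligands, 4 have another Wnt gene beside them on the chromosome. WNT9B, 14.4 kb from WNT3, was at 0 in 4 libraries and at most 0.350 FPKM. WNT10A, 6.13 kb from WNT6, and WNT1, 6.85 kb from WNT10B, were at 0 in all 7. WNT9A, 59.2 kb from WNT3A, had 1.34 FPKM (0.566 to 2.12) before Dox and 0.435 (0.103 to 0.827) by Day 4, with overlapping intervals, and 0.723 and 1.49 (0.864 to 2.12) in JMJD3c mut-hESCs without and with Dox. Day 4 lay below that last library with intervals apart, at levels under the 4 FPKM cutoff. WNT9A was the highest of the 9 other ligands, none of which was above 4 FPKM in any library.

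Of the 2 genes of the secretion machinery, 1 passed the cutoff at Day 4 against Day 0. WLS, the carrier of Wnt proteins to the cell surface, had 1.13, 3.01, 4.00, 3.52 and 7.82 FPKM on Days 0 to 4, and 1.63 and 1.57 in JMJD3c mut-hESCs without and with Dox. It was upregulated 6.92-fold at Day 4, though its intervals overlapped. PORCN, the acyltransferase, had 5.21 FPKM before Dox and 5.29 by Day 4, a ratio of 1.02, and 3.48 and 2.55 in JMJD3c mut-hESCs without and with Dox. Against JMJD3c mut-hESCs with Dox, both genes passed the cutoff upward at Day 4 (ratios 4.99 for WLS and 2.08 for PORCN), with overlapping intervals.

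Over 73 other genes of the pathway, 9 other ligands included, 41 had over 4 FPKM at Day 0 or Day 4, of which 8 were upregulated and 4 downregulated (5.87% and 7.56% of all genes tested). In JMJD3c mut-hESCs 33 were tested and 0 passed in either direction, where the shares over all genes, 1.25% and 1.53%, were low too. With Dox in both lines, 41 were tested at Day 4 against JMJD3c mut-hESCs, and 8 were higher and 1 lower past the cutoffs (6.56% and 3.00% of all genes). Among 16 receptors and co-receptors, 13 were tested and 2 were upregulated at Day 4, the Frizzled receptor FZD2 (5.37 to 11.8 FPKM) and RYK, a receptor of WNT5A (20.1 to 43.5 FPKM). In JMJD3c mut-hESCs without and with Dox, FZD2 was at 7.20 and 11.2 FPKM and RYK at 35.3 and 36.5 FPKM. Neither passed the cutoff at Day 4 against that line with Dox, whereas FZD4 did so upward (ratio 2.22) and ROR1 downward (ratio 0.479). Among 12 secreted inhibitors, 6 were tested, 3 were upregulated and 1 downregulated. Between Day 0 and Day 4, CER1, an antagonist of Nodal and BMP, went from 0 to 134 FPKM. Its place in this list does not show inhibition of Wnt. DKK4, an inhibitor that binds LRP5 and LRP6, went from 0 to 18.4 FPKM, and SFRP1, which binds Wnt proteins, from 21.7 to 52.8. The related SFRP5 was downregulated from 4.13 to 0.502 FPKM. Against JMJD3c mut-hESCs with Dox, CER1 and DKK4 passed the cutoff upward at Day 4 and SFRP1 did not (ratio 1.75). SFRP5, at 0.954 FPKM there, was too low in both libraries to be tested.

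Among the 9 R-spondins and their receptors, 2 were tested and both were downregulated at Day 4, the R-spondin receptor LGR4 (34.7 to 16.2 FPKM) and ZNRF3 (8.89 to 4.00 FPKM), a ubiquitin ligase that removes Frizzled receptors. LGR4 was also lower with Dox in JMJD3c mut-hESCs (38.4 to 24.6 FPKM, intervals apart, not past the cutoff), and at Day 4 neither passed the cutoff against that library (ratios 0.658 and 0.817). Of the 15 cytoplasmic and nuclear transducers, 13 were tested and 0 passed a cutoff. CTNNB1, which encodes β-catenin, had 151 FPKM before Dox and 226 by Day 4, a ratio of 1.49 with intervals apart, and at 196 and 205 in JMJD3c mut-hESCs without and with Dox. Of 15 listed target genes, 6 were tested, 2 were upregulated (SP5, from 0 to 28.2 FPKM, and T, the primitive streak marker, from 0.804 to 23.6 FPKM) and 2 downregulated (MYC, from 53.3 to 22.4 FPKM, and ZNRF3). The other 2 tested passed neither cutoff. They were AXIN2 (17.6 to 14.4 FPKM, ratio 0.821, intervals overlapping) and CCND1 (98.3 to 121 FPKM, ratio 1.23, intervals apart). Against JMJD3c mut-hESCs with Dox, SP5 and T passed the cutoff upward at Day 4, and MYC did not pass it (ratio 0.619). The median log2 fold change of these lists at Day 4 lay between 0.00 for the targets and 1.03 for the secretion genes. For the receptors it was 0.39.

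**Figure D4:**
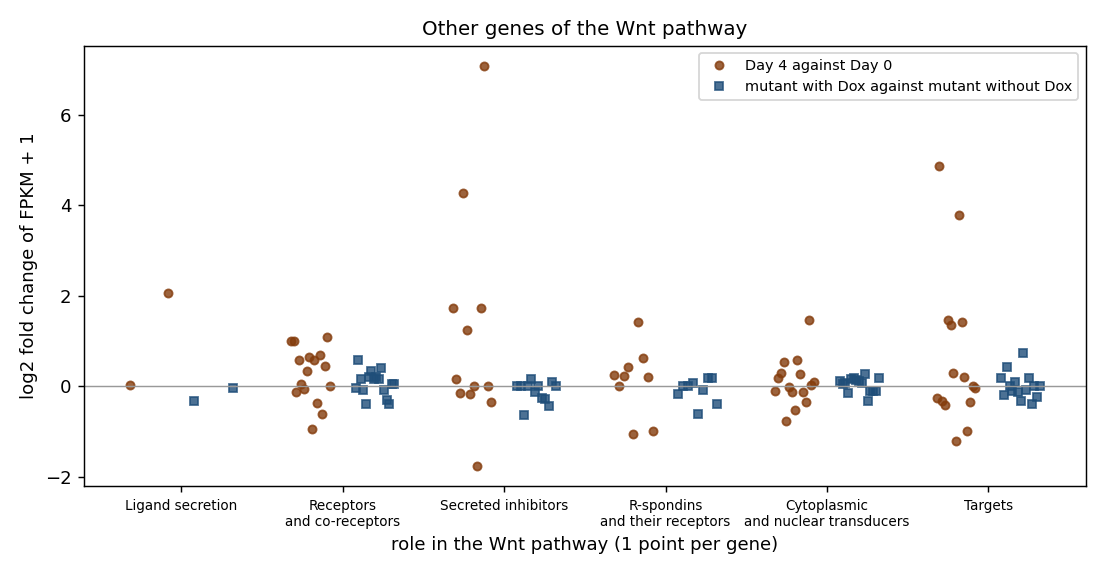
Log2 fold change of FPKM + 1 (y axis) of each other Wnt pathway gene, grouped by role (x axis), for Day 4 against Day 0 (circles) and for the mutant line with against without Dox (squares), 1 library against 1. The highest circles are CER1 (7.07), from the list of secreted inhibitors, and the target SP5 (4.87).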

How the data were processed

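RNA-seq values of 7 libraries, 1 per condition, were analysed. The authors mapped reads to hg19 with TopHat2 2.0.13 after CASAVA 1.4, estimated FPKM per gene with Cufflinks 2.1.1, and deposited FPKM with the lower and upper bounds of a 95% interval in FPKM. No read counts were used. Depth at Day 0 was estimated from whole-read steps in 47 single-exon genes, with 200 bases subtracted from transcript length, and every other depth was set against Day 0 by the modal ratio of 311 to 427 genes of low FPKM. Floors are 3 reads in FPKM. Libraries were joined on gene identifier, symbol and locus, because their gene order differs. Of the 22670 genes, 35 were marked as having too little data, and 101 to 151 per library had a value outside their own interval, but no ligand did.

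Genes were called upregulated at an FPKM ratio over 2 with over 4 FPKM in the first library, and downregulated at a ratio under 0.5 with over 4 FPKM in the second. Log2 fold changes used a pseudocount of 1, which understates the change of low genes. No test was made, since there is no replicate. The ligands, pathway and marker lists, the cutoffs and the alternatives were chosen with earlier results of these data known. Named were all 10 ligands, other ligands above 4 FPKM, WNT9A and the other neighbours of ligands (chosen after their values were seen), pathway genes past a cutoff at Day 4, CTNNB1, WLS, PORCN and KDM6B, and the 3 genes closest in profile to each ligand that spanned over 1 log2 unit. AXIN2 and CCND1, the tested targets past neither cutoff, were also named after their values were seen. Exons were taken from GENCODE on GRCh37 and promoters from RefSeq on GRCh38.p14. Protein sequences were not analysed here. Of the neuroectoderm markers only those with over 4 FPKM are reported here. Alternatives changed the cutoffs, pseudocount, scaling, entries sharing a name, intervals and reference library. Python 3.11.15, numpy 2.4.6, pandas 2.3.3 and matplotlib 3.10.9 were used. In simulated data for Day 4 against Day 0, with 22670 genes, 99.5% of 200 genes changed 4-fold were called, with 59 unchanged genes called. The changed genes were drawn only from those at higher FPKM, a read was worth the same in every gene, and counting noise was the only noise. These figures therefore do not apply to levels as low as those of most ligands, to smaller changes, or to variation between cultures.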

Additional observations from a re-analysis of the deposited data

Results flagged for a closer look

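Of 24 genes examined, 4 were higher than Day 0 at every day of Dox in JMJD3c-hESCs while JMJD3c mut-hESCs were lower with Dox than without. They were the ligand WNT3 (10.9 FPKM at Day 4), the carrier WLS (7.82 FPKM), CER1 (134 FPKM) and the target SP5 (28.2 FPKM). The 24 were the 10 ligands, pathway genes past a cutoff at Day 4 against Day 0, and CTNNB1, WLS and PORCN whatever their value. CER1 and SP5 were thus chosen for their rise at Day 4, and the share of all genes meeting this rule was not computed. WNT3 at Day 1 was only 1.02 times Day 0, and WLS in JMJD3c mut-hESCs went only from 1.63 to 1.57 FPKM. With 1 library per condition the difference between the lines was not tested. In JMJD3c mut-hESCs the intervals lay apart for WNT3 and overlapped for the other 3, and SP5 and CER1 were at or below 1.62 FPKM there.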

How the results depend on the processing

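No paired analysis was possible because each condition had 1 library, and for the same reason no library could be left out. Of 46 counts of called ligands recomputed under other settings, 38 stayed within 1.5 times the reported count, and WNT3 and WNT5A changed direction under no setting of a comparison that called them. With JMJD3c mut-hESCs without Dox in place of Day 0, the log2 fold change at Day 4 changed sign for WNT4 (-0.61 to 0.41), WNT5A (0.09 to -0.32) and WNT11 (-0.10 to 0.10), none of them past the reported cutoffs there. For Day 4 against Day 0, 1 ligand was downregulated with a cutoff of 1 FPKM (WNT4), 5 were upregulated (WNT2B, WNT3A, WNT6, WNT8A and WNT10B) and 1 downregulated (WNT4) with no cutoff, and 1 was upregulated (WNT3) with JMJD3c mut-hESCs without Dox as the reference. For JMJD3c mut-hESCs with against without Dox, 0 were downregulated with a cutoff of 10 FPKM, and 1 was upregulated (WNT2B) and 3 downregulated (WNT4, WNT5A and WNT11) with no cutoff. For Day 4 against JMJD3c mut-hESCs with Dox, 7 were upregulated with no cutoff. The ligands added with no cutoff rest on 0 to 8 reads. Of 20 medians, 18 moved by less than a spread taken from the Cufflinks intervals of single ligands, which is not the error of a median. It was wide, 0.961 for Day 4 against Day 0, where a move from 0.242 to 0.967 with a pseudocount of 0.1 counted as unmoved. The other 2 medians were -0.74 in JMJD3c mut-hESCs over the 3 ligands above 1 FPKM on average, and 1.79 for Day 4 against JMJD3c mut-hESCs with Dox with a pseudocount of 0.1. Among 50 single-ligand values, 4 moved by more than the spread from their own intervals, all with the pseudocount of 0.1 (WNT2B, WNT6, WNT8A and WNT10B). For WNT4 that spread was 1.88, so its change of sign counted as unmoved, and these labels are a weak check of stability. Scaling changed no call: the ratio of WNT3 at Day 4 to Day 0 was 1.88 by the median of ratios and 1.91 by the upper quartile, still below 2. Depth limits the 7 low ligands, where 1 read at Day 0 was worth up to 0.383 FPKM.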
